A study of Mus musculus with 6 samples.

Results

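The 35 core autophagy genes are the protein-coding genes of the machinery that builds the autophagosome, chosen by symbol from the 34745 genes of the deposited expression table. All 35 were found, and all 35 passed the filter of a mean of at least 1 FPKM (fragments per kilobase of transcript, scaled to library size) that 9701 genes passed. They were grouped by step into initiation (4 genes), nucleation (6), membrane supply (5), conjugation (11), the LC3 family (5) and cargo receptors (4). RNA came from peritoneal macrophages of C57BL/6 mice, given R-2-HG (R-2-hydroxyglutarate) at 0.1 mM for 24 h in 3 libraries and vehicle for 24 h in the other 3. R-2-HG is the metabolite made by mutant isocitrate dehydrogenases, and it competes with 2-oxoglutarate for the enzymes that use it. The age and sex of the mice, and whether libraries came from separate animals or cultures, are not stated in the labels, so a p-value here reflects the spread among these 6 libraries alone, and that spread may be technical. Where 3 values are given for a group, they are those of libraries 1, 2 and 3 in that order.

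Macroautophagy encloses cytoplasm in a double membrane that fuses with the lysosome. The ULK1 kinase complex starts the process, a class III phosphatidylinositol 3-kinase complex marks the site, ATG9 vesicles, ATG2 and the WIPI proteins supply lipid, and ubiquitin-like conjugation attaches the LC3 and GABARAP proteins to the membrane, where cargo receptors bind them. In macrophages the same conjugation machinery also acts on single-membrane phagosomes.

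The LC3 family is the point on which the conjugation steps converge, so the end of the coding sequence is shown for 4 of its 5 genes. Before conjugation, an ATG4 protease cuts behind a glycine near the C terminus, and that glycine is joined to the membrane lipid. The last 30 coding bases before the stop codon, with the last glycine codon in capitals, come from GENCODE M21 transcripts (GRCm38, all on the + strand).
Map1lc3a (chr2:155277605-155277634): gtctacgcctcccaagaaaccttcGGCttc
Gabarap (chr11:69994492-69994521): gcctacagtgatgaaagcgtctatGGTctg
Gabarapl1 (chr6:129541135-129541164): gcctacagtgatgaaagtgtctatGGAaaa
Gabarapl2 (chr8:111952373-111952402): gcctacagcggagagaacacttttGGCttc
The glycine is codon 120 of 121 in Map1lc3a and codon 116 of 117 in each of the GABARAP genes. Over the whole coding sequence Gabarap and Gabarapl1 shared 74.9% of aligned bases, with a longest identical run of 17 bases.

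The libraries were macrophage RNA of similar depth. Estimated depth was 13560000 to 16160000 fragments with R-2-HG and 15310000 to 16440000 with vehicle, where 1 fragment of a 2 kb transcript is worth 0.0304 to 0.0369 FPKM. R-2-HG library 3 had the fewest genes above 0, at 12817, against 13872 to 15270 in the others. All 8 general macrophage markers were above the filter, and their summed level was 18813 to 25622 FPKM with R-2-HG and 20285 to 22871 FPKM with vehicle. Most of that sum was Lyz2, at 16924 to 23901 FPKM with R-2-HG and 18428 to 21164 FPKM with vehicle. Lyz2, Adgre1, Mrc1 and Fcgr1 fell from library 1 to library 3 in both groups. Cd68 was highest in library 3 of both groups, and Csf1r and Mertk in library 2. Itgam was 44.4 FPKM in R-2-HG library 1 and 88.4 to 113 FPKM in the others. Of the large peritoneal macrophage markers, 2 of 3 passed, with a sum of 2.099 to 4.25 FPKM with R-2-HG and 3.28 to 4.76 FPKM with vehicle. Markers of T and NK cells (0 of 5 above the filter), mast cells (0 of 4) and dendritic cells (0 of 3) summed to at most 3.09 FPKM in any library. B cell markers (1 of 5) summed to 5.96 to 7.56 FPKM with R-2-HG and 5.82 to 34.0 FPKM with vehicle, and neutrophil markers (1 of 4) to 10.9 to 17.5 FPKM with R-2-HG and 9.74 to 16.5 FPKM with vehicle. Fibroblast and mesothelial markers (4 of 6) summed to 70.5, 11.2 and 3.81 FPKM with R-2-HG and to 81.7, 21.9 and 3.92 FPKM with vehicle, highest in library 1 and lowest in library 3 of each group, and their part in any value below was not tested. In these bulk samples fewer cells of a type and less RNA per cell cannot be told apart.

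No difference between R-2-HG and vehicle in a core autophagy gene was large enough, against the spread between replicates, to pass the test. Of the 35 members, 0 passed limma's test (Benjamini-Hochberg adjusted p under 0.05 over all genes tested), where 0% of the 9701 genes were called. The smallest unadjusted p among members was 0.117, so 0 members were under 0.05 without adjustment, against 1.44% of all genes. With the library number as a block, 0 members were called (0% of all genes) and 0 had an unadjusted p under 0.05, where 3.39% of all genes did. The smallest p-values of members in that limma fit were 0.0682 for Atg10, 0.113 for Tax1bp1 and 0.115 for Atg14, before adjustment. Standard errors, intervals and p-values given below without mention of the block or number are from the fit without it. Means of log2(FPKM + 1) were higher with R-2-HG for 19 members and lower for 16, and higher and lower are counted on that scale throughout. The median difference over the members was 0.003 on the log2(FPKM + 1) scale, beside -0.004 over all genes tested, and single members ran from -0.19 to 0.27. The summed level of all 35 genes was 740, 707 and 766 FPKM with R-2-HG and 744, 722 and 748 FPKM with vehicle, so the groups overlapped.

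A 95% interval for the difference of each member was taken on the log2(FPKM + 1) scale, from the fit without the block. Each interval is for 1 gene at a time, with no allowance for the number of genes. That scale understates fold changes, most for low genes such as Atg16l2, Rb1cc1 and Atg16l1, so its intervals are not bounds on the fold change. For Atg10 the log2 difference was 0.27 on this scale and 0.32 with a pseudocount of 0.1. The 95% interval lay within 1 log2 unit of 0 for all 35 members, and within 0.5 units for 28 (80%), a share that was 60.2% among all genes tested. Within groups the members' median SD was 0.16 log2 units, beside 0.19 for all genes. By group it was 0.169 with R-2-HG and 0.104 with vehicle for the members, and 0.195 and 0.151 for all genes. The SD was larger with R-2-HG for 57.1% of members and 62.6% of all genes, while the fit takes 1 variance for both groups. The widest upper bound was that of Atg10, at 0.62, and the lowest lower bound that of Ulk1, at -0.56.

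**Figure D1:**
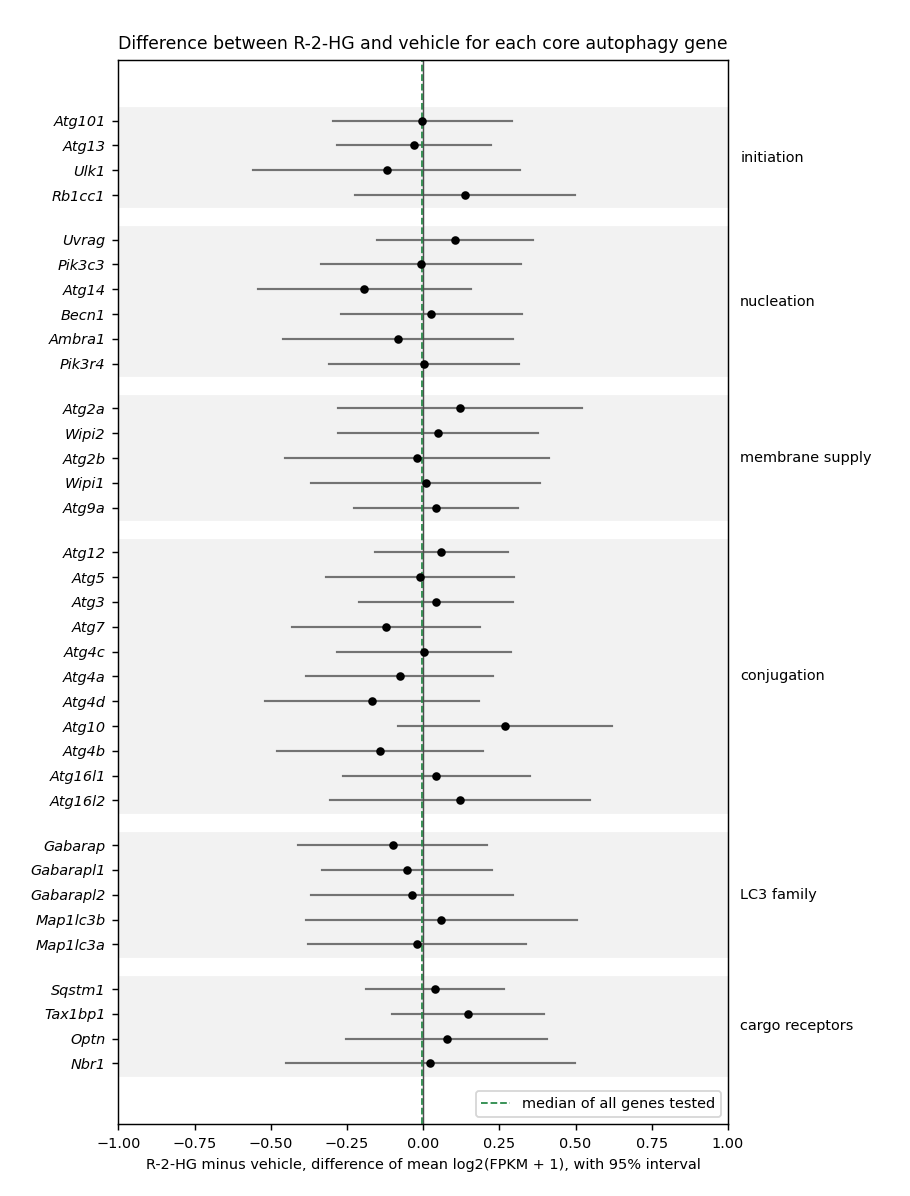
The difference between R-2-HG and vehicle for each of the 35 core autophagy genes, as the difference of mean log2(FPKM + 1) (x axis), in rows by step and by mean level within a step. Points are limma estimates from 3 libraries a group, lines are 95% intervals, and the dashed line is the median of all 9701 genes. All 35 intervals include 0 and lie within 1 unit of it, on a scale that understates fold changes of low genes.

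Complete separation of the groups was not seen in any member. For 0 of 35 genes did the R-2-HG libraries all lie on one side of the vehicle libraries, against 4.69% of all genes tested. With 1 library left out, the count was 1 to 6 of 35, where 11% to 16.7% of all genes separated. It was 6 without R-2-HG library 3 (12.4% of all genes), 5 without vehicle library 1 (11.6%) and 1 without vehicle library 3 (11%). The count was 3 without R-2-HG library 1 (16.7%), R-2-HG library 2 (14.9%) or vehicle library 2 (12.5%). In the pairs of libraries with the same number, 5 members (Rb1cc1, Atg9a, Atg3, Atg10 and Tax1bp1) were above vehicle in each of the 3 pairs, beside 11.7% of all genes. Below vehicle in each pair were 2 members (Atg14 and Atg7), beside 11.8% of all genes.

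Levels of the members spanned a wide range. Abundance here means FPKM, so an order of genes depends on the transcript lengths the authors used, which are not stated. Sqstm1 and Gabarap were the most abundant, above 98.0% and 97.8% of the genes tested, followed by Gabarapl1, Atg12, Tax1bp1, Atg5 and Atg3. Atg16l2, Rb1cc1 and Atg16l1 were the least abundant, with means over all libraries of 1.16, 1.90 and 1.94 FPKM.

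**Figure D2:**
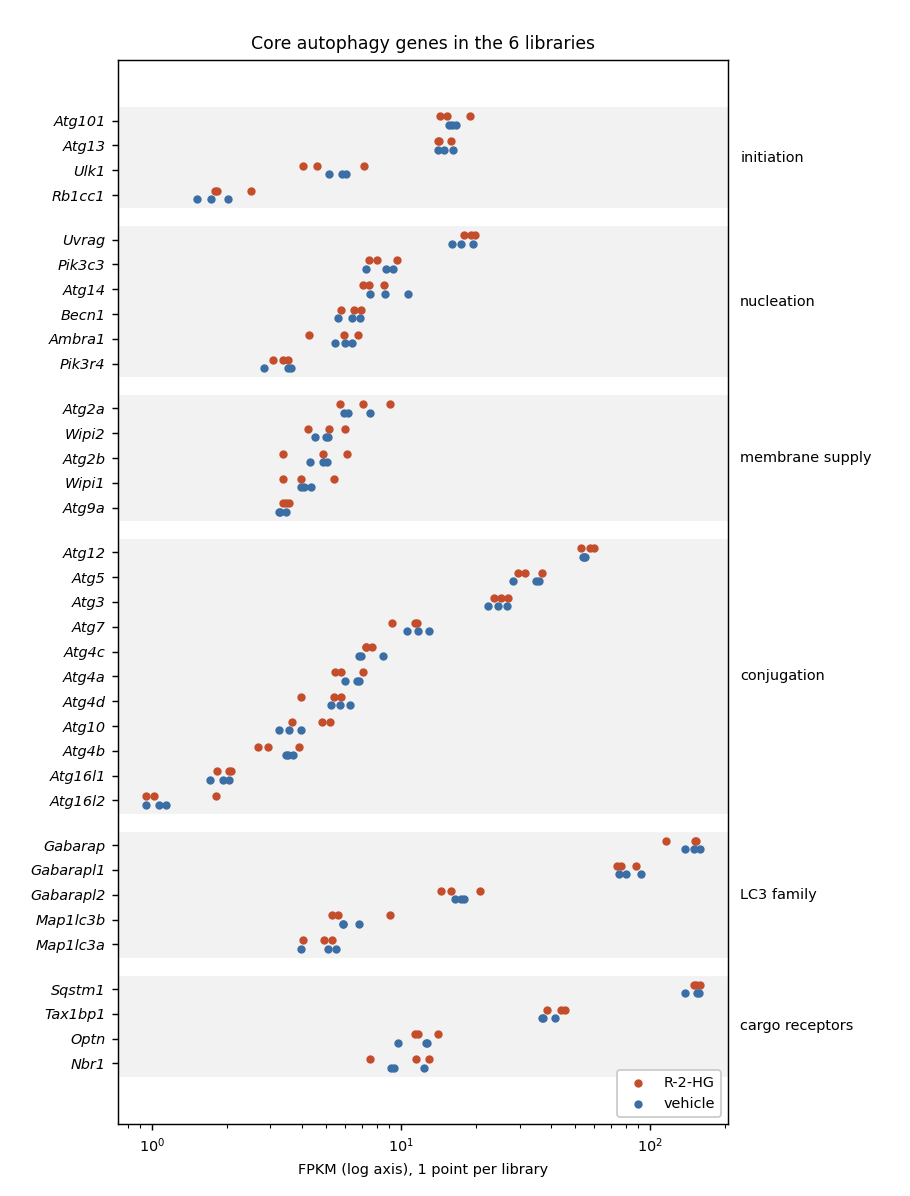
FPKM of the 35 core autophagy genes on a log axis, 1 point per library, with the 3 R-2-HG libraries above the 3 vehicle libraries in each row and rows grouped by step. The points of the groups overlap in every row, while genes range from 1.16 FPKM (Atg16l2) to 152 FPKM (Sqstm1) on average.

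Among the 4 initiation genes, the mean log2(FPKM + 1) was higher with R-2-HG for 1 and lower for 3, with Atg101 at -0.003. Atg101, which stabilises ATG13 in the ULK1 complex, was the most abundant, at 14.4, 15.3 and 19.0 FPKM with R-2-HG and 16.1, 15.7 and 16.7 FPKM with vehicle. The vehicle libraries lay between the lowest and the highest R-2-HG library. Rb1cc1, the scaffold also called FIP200, had the smallest p of the step (0.406 before adjustment), with 1.80, 2.50 and 1.84 FPKM with R-2-HG and 1.52, 2.03 and 1.73 FPKM with vehicle. It was higher with R-2-HG in each pair (log2 difference 0.14 ± 0.16 SE; 0.033 without R-2-HG library 2 and 0.21 without vehicle library 2), and the groups overlapped. Ulk1, the kinase, averaged 5.27 ± 1.65 FPKM with R-2-HG and 5.67 ± 0.453 FPKM with vehicle (SD, n = 3 each), and Atg13, its adaptor, 14.8 ± 0.970 FPKM with R-2-HG and 15.1 ± 1.05 FPKM with vehicle.

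The nucleation genes encode BECN1, the lipid kinase PIK3C3, its regulator PIK3R4, and the partners ATG14, UVRAG and AMBRA1. ATG14 directs the kinase to autophagosome formation, while UVRAG takes its place in a complex of the endosomal pathway. Uvrag had the highest level, at 18.03, 19.8 and 19.1 FPKM with R-2-HG and 19.4, 17.5 and 16.0 FPKM with vehicle. Vehicle library 1 lay inside the R-2-HG range and the other vehicle libraries below it (log2 difference 0.10 ± 0.11 SE). Atg14 had the smallest p of the step (0.238 before adjustment), at 7.45, 7.03 and 8.61 FPKM with R-2-HG and 7.56, 8.68 and 10.7 FPKM with vehicle. It was lower with R-2-HG in each pair (-0.19 ± 0.15 SE; 0.856 times the vehicle mean; -0.07 without vehicle library 3 and -0.30 without vehicle library 1), but the R-2-HG library 3 value was above that of vehicle library 1. Becn1 averaged 6.40 ± 0.586 FPKM with R-2-HG and 6.27 ± 0.650 FPKM with vehicle, Pik3c3 8.38 ± 1.11 FPKM with R-2-HG and 8.43 ± 1.08 FPKM with vehicle, Pik3r4 3.32 ± 0.231 FPKM with R-2-HG and 3.32 ± 0.441 FPKM with vehicle, and Ambra1 5.63 ± 1.24 FPKM with R-2-HG and 5.94 ± 0.444 FPKM with vehicle (SD, n = 3 each).

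The 5 genes of membrane supply lay between 3.32 and 7.27 FPKM in group means. Their means over all libraries were above 30.4% (Atg9a) to 53.3% (Atg2a) of the genes tested. Atg2a, which encodes a lipid transfer protein, was both the most abundant and the one with the smallest p (0.503 before adjustment), at 5.72, 9.06 and 7.04 FPKM with R-2-HG and 6.17, 7.51 and 5.92 FPKM with vehicle. R-2-HG library 2 had the highest value of all 6 libraries for each of the 5 genes, among them the paralog Atg2b at 6.11 FPKM and the lipid-binding Wipi1 and Wipi2 at 5.37 and 5.97 FPKM. It was the highest library for 13 of the 35 members and for 23.8% of all genes tested. R-2-HG library 3 was the highest for 8 members and 24.6% of all genes, and the lowest for 5 members and 25.2% of all genes. None of the 5 genes of membrane supply passed the test. Atg2b had 4.78 ± 1.37 FPKM with R-2-HG and 4.76 ± 0.373 FPKM with vehicle, Wipi1 4.24 ± 1.03 FPKM with R-2-HG and 4.15 ± 0.195 FPKM with vehicle, and Wipi2 5.13 ± 0.856 FPKM with R-2-HG and 4.89 ± 0.320 FPKM with vehicle (SD, n = 3 each). Atg9a, the membrane protein of the vesicles, varied least within groups on the log2 scale among the 35 members, with 3.46 ± 0.0935 FPKM with R-2-HG and 3.32 ± 0.117 FPKM with vehicle.

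Conjugation runs in a pair of linked reactions. ATG7 activates and ATG10 and ATG3 transfer the ubiquitin-like proteins, ATG12 is joined to ATG5, that conjugate binds ATG16L1, and ATG4 proteases prime the LC3 family. Of the 11 genes, 6 had a higher and 5 a lower mean log2(FPKM + 1) with R-2-HG, with Atg4c at 0.002 counted as higher. Atg12 was the most abundant, at 59.8, 53.0 and 57.7 FPKM with R-2-HG and 54.4, 54.7 and 54.1 FPKM with vehicle. Its vehicle libraries lay close together, inside the R-2-HG range. Atg5 averaged 32.7 ± 3.70 FPKM with R-2-HG and 32.9 ± 4.20 FPKM with vehicle, and their partner Atg16l1 1.98 ± 0.141 FPKM with R-2-HG and 1.90 ± 0.168 FPKM with vehicle (SD, n = 3 each), so the 3 genes of 1 complex differed widely in FPKM in both groups.

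Atg10, the transfer enzyme of ATG12, had the smallest p of all 35 members (0.117 before adjustment; adjusted p = 0.99998, limma). It stood at 4.83, 5.22 and 3.65 FPKM with R-2-HG and at 3.97, 3.57 and 3.25 FPKM with vehicle. Each R-2-HG library was above the vehicle library of the same number, and R-2-HG library 3 lay below vehicle library 1. The R-2-HG mean was 1.27 times the vehicle mean (log2 difference 0.27 ± 0.15 SE, 95% interval -0.084 to 0.62). Atg7, the activating enzyme of both reactions, averaged 10.8 ± 1.33 FPKM with R-2-HG and 11.8 ± 1.19 FPKM with vehicle, and Atg3, the transfer enzyme of the LC3 family, 25.3 ± 1.61 FPKM with R-2-HG and 24.6 ± 2.16 FPKM with vehicle (SD, n = 3 each).

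Of the ATG4 proteases, Atg4c had the highest FPKM, at 7.40 ± 0.249 FPKM with R-2-HG and 7.42 ± 0.922 FPKM with vehicle (SD, n = 3 each). Merged exon lengths (GENCODE M21) were 3351 bases for Atg4c, 7264 for Atg4d, 8278 for Atg4b and 2661 for Atg4a. The order may depend on the lengths the authors used, which are not stated. Atg4d averaged 5.04 ± 0.943 FPKM with R-2-HG and 5.74 ± 0.487 FPKM with vehicle, and Atg4b 3.16 ± 0.641 FPKM with R-2-HG and 3.56 ± 0.123 FPKM with vehicle. Atg4a, at 6.10 ± 0.862 FPKM with R-2-HG and 6.46 ± 0.436 FPKM with vehicle, is uncertain, since 51.2% of the 50-base stretches of its transcripts also occur in the pseudogene Atg4a-ps, which the table lists at 1.81 to 3.4998 FPKM. Atg16l2, an ATG16L1 paralog, lay just above the filter at 0.949, 1.03 and 1.81 FPKM with R-2-HG and 1.07, 0.94996 and 1.14 FPKM with vehicle, with R-2-HG library 3 above the rest.

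In the LC3 family, the GABARAP branch made up most of the summed FPKM. Gabarap stood at 153, 116 and 152 FPKM with R-2-HG and at 160, 138 and 151 FPKM with vehicle. Library 2 was the lowest of its group in both. Gabarapl1 stood at 76.8, 73.9 and 88.3 FPKM with R-2-HG and at 74.9, 80.5 and 92.6 FPKM with vehicle, with library 3 the highest of its group in both. Gabarapl2, also called GATE-16, stood at 15.9, 14.5 and 20.8 FPKM with R-2-HG and at 17.5, 16.5 and 17.96 FPKM with vehicle. The 3 GABARAP genes kept this order in all 6 libraries with no overlap between them. In R-2-HG library 2, where Gabarap was lowest, the summed mitochondrially encoded and ribosomal protein genes were also the lowest of all libraries, at 18917 and 4558 FPKM, against 19080 to 24090 and 4991 to 5704 FPKM in the others. In vehicle library 3, where Gabarap stood at 151 FPKM, the mitochondrial sum was nearly as low, at 19080 FPKM, and the ribosomal sum was 5296 FPKM. In vehicle library 2, where Gabarap stood at 138 FPKM, the mitochondrial and ribosomal sums were 22289 and 4991 FPKM. Their part in the Gabarap value was not tested.

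The LC3 genes proper were far lower in FPKM. Merged exon lengths (GENCODE M21) were 1181 bases for Map1lc3a, 7517 for Map1lc3b and 1844 for Gabarap. The lengths the authors used are not stated, and how they bear on the shares of the family was not tested. Map1lc3a stood at 5.32, 4.94 and 4.05 FPKM with R-2-HG and at 5.10, 3.98 and 5.49 FPKM with vehicle. Map1lc3b, the member most used as a protein marker of autophagosomes, stood at 5.31, 5.59 and 9.06 FPKM with R-2-HG and at 5.84, 5.89 and 6.83 FPKM with vehicle. R-2-HG library 3 was the highest for Map1lc3b and the other R-2-HG libraries were the lowest, and the log2 difference was 0.06 ± 0.19 (SE), or -0.15 without R-2-HG library 3. Of the family's summed FPKM, Gabarap made up 56.4% ± 2.98 with R-2-HG and 57.4% ± 2.91 with vehicle, Gabarapl1 32.2% ± 2.20 with R-2-HG and 31.7% ± 2.83 with vehicle, Gabarapl2 6.84% ± 0.714 with R-2-HG and 6.65% ± 0.0863 with vehicle, Map1lc3b 2.66% ± 0.620 with R-2-HG and 2.37% ± 0.138 with vehicle, and Map1lc3a 1.95% ± 0.424 with R-2-HG and 1.86% ± 0.207 with vehicle (SD, n = 3 each). The log2 difference was -0.10 ± 0.13 for Gabarap, -0.05 ± 0.12 for Gabarapl1, -0.04 ± 0.14 for Gabarapl2 and -0.02 ± 0.15 for Map1lc3a (SE).

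The 4 cargo receptors all had a slightly higher mean with R-2-HG, and none passed the test. Sqstm1, which encodes p62 and is itself degraded by autophagy as a protein, stood at 154, 150 and 160 FPKM with R-2-HG and at 158, 139 and 155 FPKM with vehicle. The groups overlapped, and the log2 difference was 0.04 ± 0.10 (SE), or -0.016 without vehicle library 2. Tax1bp1, a receptor for ubiquitin-marked cargo, had the smallest p of the step (0.213 before adjustment), at 38.7, 44.2 and 45.8 FPKM with R-2-HG and 37.4, 41.5 and 37.0 FPKM with vehicle. It was higher with R-2-HG in each pair (log2 difference 0.15 ± 0.11 SE; 1.11 times the vehicle mean), and R-2-HG library 1 lay below vehicle library 2. Optn, a receptor in the clearance of mitochondria and bacteria, averaged 12.4 ± 1.46 FPKM with R-2-HG and 11.7 ± 1.68 FPKM with vehicle, and Nbr1, a relative of p62 in domain layout, 10.7 ± 2.79 FPKM with R-2-HG and 10.3 ± 1.82 FPKM with vehicle (SD, n = 3 each).

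Compared by step, the median log2 differences were small and of either sign. They were 0.06 for cargo receptors, 0.04 for membrane supply, 0.002 for conjugation, -0.002 for nucleation, -0.02 for initiation and -0.04 for the LC3 family. Summed FPKM of the cargo receptors was 217, 220 and 225 with R-2-HG and 214, 206 and 214 with vehicle. It was the only step whose sums did not overlap, and this sum of chosen genes was not tested. Sqstm1 made up most of it, but neither Sqstm1 nor any other receptor separated the groups on its own. Means with R-2-HG and vehicle were 154 and 150 FPKM for Sqstm1 and 42.9 and 38.6 FPKM for Tax1bp1. The LC3 family summed to 256, 215 and 274 FPKM with R-2-HG and 263, 245 and 274 FPKM with vehicle. With 1 library left out, the sign of the median turned in each step except the cargo receptors, where it ran from 0.019 (without vehicle library 1) to 0.14 (without vehicle library 2). The median of membrane supply was -0.048 without R-2-HG library 2, and that of the LC3 family -0.15 without R-2-HG library 3.

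**Figure D3:**
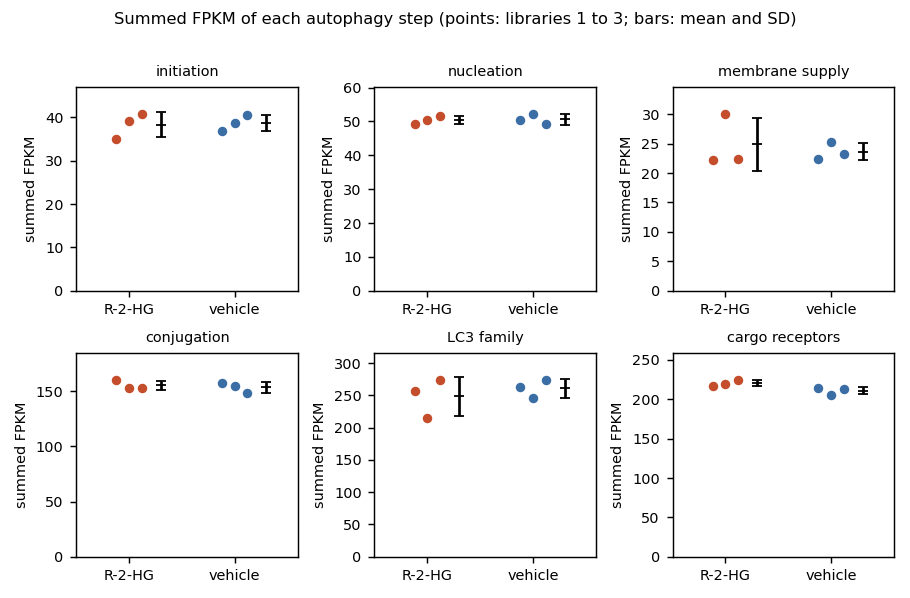
Summed FPKM of the genes of each autophagy step (y axis, from 0), with 1 point for each of libraries 1 to 3 from left to right, R-2-HG left of vehicle, and bars for the mean and SD (n = 3). The groups overlap in every step except the cargo receptors, where R-2-HG libraries sit at 217 to 225 and vehicle libraries at 206 to 214.

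Differences between libraries of the same group were then set against the library number, which the groups share. With treatment and number in 1 fit, limma's F test of the number terms called 0 of 35 members, beside 1.6% of all genes; without adjustment 3 members (8.57%) were under 0.05, beside 21% of all genes. By this limma test they were Gabarap (0.0332; adjusted p = 0.201), Gabarapl1 (0.0373; adjusted p = 0.209) and Atg5 (0.0402; adjusted p = 0.216). Atg5 stood at 36.8, 31.6 and 29.6 FPKM with R-2-HG and at 35.8, 34.95 and 28.1 FPKM with vehicle, with library 3 the lowest of its group in both.

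**Figure D4:**
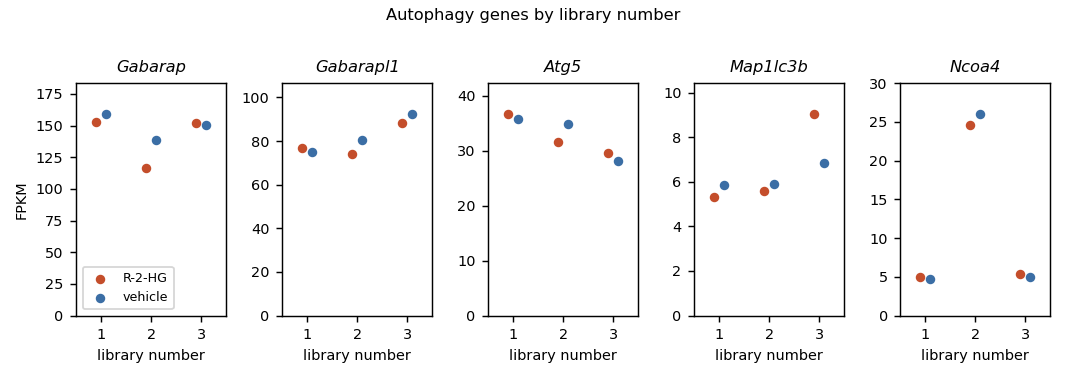
FPKM (y axis, from 0) by library number (x axis) for 4 core autophagy genes and for Ncoa4, with R-2-HG points left of vehicle points. Ncoa4 is high in both libraries of number 2, at 24.7 and 26.1 FPKM, and 4.75 to 5.34 FPKM in the others, while the other 4 genes move much less with the number.

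None of the rest of the pathway passed the test for the treatment either. The wider list held 54 genes of regulation, membrane scaffolding, lysosome fusion and selective autophagy, of which 51 passed the filter. Of these, 0 were called with R-2-HG by limma and 0 had an unadjusted p under 0.05, 24 had a higher and 27 a lower mean log2(FPKM + 1), and the median log2 difference was -0.007. Vamp8, which encodes a SNARE protein of autophagosome-lysosome fusion, had the smallest p (0.173 before adjustment), at 23.5, 25.7 and 35.8 FPKM with R-2-HG and 27.4, 37.4 and 38.8 FPKM with vehicle. It was lower with R-2-HG in each pair, and with the library number as a block it was the 1 gene of the 51 with an unadjusted p under 0.05 (0.0292; adjusted p = 0.991, limma), beside 3.39% of all genes. Zfyve1, which encodes DFCP1, a protein of the omegasome, was next (0.202), at 13.7, 15.2 and 16.2 FPKM with R-2-HG and 16.1, 16.8 and 17.4 FPKM with vehicle. Sh3glb1, which encodes the BECN1-UVRAG partner endophilin B1, followed (0.235), at 53.6, 54.7 and 52.2 FPKM with R-2-HG and 51.8, 48.5 and 47.5 FPKM with vehicle. Sh3glb1 and the HOPS subunit gene Vps41 were the 2 genes of the 51 whose groups did not overlap, both higher with R-2-HG, beside 2.03% of all genes in that direction.

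By library number 1 gene of the 51 was called, beside 1.6% of all genes. Ncoa4, which encodes the receptor that delivers ferritin to autophagosomes, stood at 4.94, 24.7 and 5.34 FPKM with R-2-HG and at 4.75, 26.1 and 4.99 FPKM with vehicle (adjusted p = 0.00522, limma F test). Both libraries of number 2 were high and the groups did not differ within any number by more than 1.43 FPKM. The labels do not say what the number marks.

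The promoters of the members were searched for the motifs of the CLEAR network, through which TFEB and related factors act on lysosome and autophagy genes. RefSeq promoter windows (250 bases before to 50 after the start, GRCm38.p6) were at hand for 29 of 35 members. The motif TCACGTGA was in 1 of 29 (3.45%), beside 1.12% of 27025 genes, its 10-letter CLEAR form with G before and C after it in 0, beside 0.37%, and the core CACGTG, which both contain, in 4 (13.8%; Atg3, Atg5, Atg7 and Atg14), beside 8.09%. Each of the motifs reads the same on both strands. A gene was counted if any of its windows held the motif. The windows of Atg7 and Atg14 that hold the core lie inside the GENCODE M21 gene, past its annotated start. The Atg3 window is the one with TCACGTGA, and its stretch with a pair of cores, in capitals, is shown (+ strand, 98 to 62 bases before the start).
Atg3 (chr16:45158731-45158767): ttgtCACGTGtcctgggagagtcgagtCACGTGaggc
The 4 genes with the core had log2 differences of 0.04 (Atg3), -0.01 (Atg5), -0.12 (Atg7) and -0.19 (Atg14), none past the test.

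Values of several members may depend on how the authors assigned fragments. Exons overlap a gene on the opposite strand over 43.9% of the exon length of Becn1 (Cntd1), 28.3% of Gabarapl1 (1700101I11Rik), 19.3% of Atg4d (Kri1), 17.6% of Uvrag (Gm45187) and 17.3% of Sqstm1 (Mrnip), and strand handling is not given in the sources used here. Atg9a shares 30.2% of its 50-base stretches with other models, among them the overlapping Gm29253, which the table lists at no more than 0.0131 FPKM. Gabarapl2 shares 12.2% and Map1lc3b 5.77% with other gene models, while Gabarap, Gabarapl1, Map1lc3a and Sqstm1 share 0%.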

How the data were processed

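FPKM values per gene and library were used as deposited by the authors in 1 table of 34745 genes and 6 libraries. Per the submitters' processing notes, Bowtie 0.12.2 and Cuffdiff were used, with mm8 and mm10 as builds, in no stated role or order. Their settings, the annotation and strand handling are not stated there. As a unit, FPKM holds no counts, so no count test was run. Columns were matched to libraries by title, and 0 per-sample columns were left over. Depth was estimated as the smallest total for which low FPKM times exon length (GENCODE M21, 7051 genes with 1 transcript over 1000 bases) gave whole fragments, which 95.6% to 96.9% of low values did within 0.1. The 9701 genes averaging 1 FPKM or more entered limma 3.58.1 (R 4.3.3) as log2(FPKM + 1) (trend, robust, two-sided, Benjamini-Hochberg, threshold 0.05), and differences are R-2-HG minus vehicle, which understates low genes. Replicate numbers were tested by a moderated F test with treatment in the fit. Deviations from group means of same-numbered libraries correlated at 0.54, 0.37 and 0.36 for numbers 1, 2 and 3, all above 0.1. The numbers were therefore taken to pair the samples in a blocked fit, which was an alternative. This pairing comes from the data and is not stated in the labels, and the main fit leaves it out. Other alternatives were pseudocount, filter, scaling, variance model and leaving out each library. Exact permutation of 3 against 3 libraries cannot pass 0.05. Values in every library are given for the most abundant member and the one with the smallest p in each step, the LC3 family, any separated or called member, the 3 wider genes with the smallest p and any called. Atg5, Atg16l2 and Vps41, and the high values of Atg2b, Wipi1 and Wipi2, were added after their values were seen. Members and lists were chosen with earlier results of these data known. Of the wider list, 6 genes were found under older symbols by gene ID. Shared 50-base stretches and motifs were found in Python 3.11.15, coding sequences aligned with Biopython 1.88, and figures drawn with matplotlib 3.10.9. A sequence and a gene of the wider list are not reported here.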

Additional observations from a re-analysis of the deposited data

How the results depend on the processing

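The count of members called with R-2-HG stayed at 0 under all alternatives, as did the counts for the wider list and for members by library number, while the count over all genes was 0 to 1 with 1 library left out (1 without R-2-HG library 1 and 1 without R-2-HG library 3). With the replicate number as a block, 0 of 35 members and 0 of 9701 genes were called (329 genes, 3.39%, and 0 members under 0.05 without adjustment), and the block changed no adjusted call. Another pseudocount (0.1), no filter, a filter of 5 FPKM, quantile or upper quartile scaling and another variance model kept the sign of each named member; the filter of 5 FPKM left out Rb1cc1, Atg10 and Map1lc3a. With 1 library left out the sign turned for 8 of the 14 members named by rule, none called: Atg101 ran from -0.12 to 0.075, Atg2a from -0.029 to 0.26, Gabarap from -0.17 to 0.030, Gabarapl1 from -0.13 to 0.032, Gabarapl2 from -0.18 to 0.067, Map1lc3a from -0.13 to 0.074, Map1lc3b from -0.15 to 0.18 and Sqstm1 from -0.016 to 0.074. The 6 others kept their sign, with Rb1cc1 from 0.033 to 0.21, Uvrag from 0.04 to 0.17, Atg14 from -0.30 to -0.07, Atg12 from 0.024 to 0.11, Atg10 from 0.18 to 0.39 and Tax1bp1 from 0.098 to 0.22. The median of all members ran from -0.0036 to 0.036, that of initiation from -0.04 to 0.033, of nucleation from -0.056 to 0.051, of membrane supply from -0.048 to 0.13, of conjugation from -0.0175 to 0.036, of the LC3 family from -0.15 to 0.032, of the cargo receptors from 0.019 to 0.14 and of the wider list from -0.047 to 0.023. The number of members without overlap ran from 1 (beside 11% of all genes, without vehicle library 3) to 6 (beside 12.4%, without R-2-HG library 3). The cause was not tested. The least abundant member, Atg16l2, averaged 1.16 FPKM, where 1 fragment of a 2 kb transcript is worth at most 0.0369 FPKM; how depth bears on the spread was not tested.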

Other observations

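Trp53inp1, a gene of the wider list whose product binds LC3 proteins and which was picked out after its values were seen, stood at 9.36, 10.3 and 0.987 FPKM with R-2-HG (libraries 1, 2 and 3) and at 8.25, 11.5 and 7.91 FPKM with vehicle. R-2-HG library 3 lay far below the other 5 libraries, and the log2 difference was -0.72 ± 0.65 (SE), with an unadjusted p of 0.304 (limma). Calcoco2, the gene of the receptor NDP52, was listed at 0 in all 6 libraries, while its relative Calcoco1 stood at 11.7, 14.4 and 13.3 FPKM with R-2-HG and at 13.3, 15.1 and 13.8 FPKM with vehicle. Pink1, which encodes a mitochondrial kinase, stood at 22.7 to 25.1 FPKM with R-2-HG and 19.6 to 26.8 FPKM with vehicle.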
